A study of Mus musculus with 58 samples.

Results

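The carbonic anhydrases described here were 9 genes of the mouse, Car2, Car3, Car4, Car5a, Car8, Car9, Car12, Car13 and Car14, out of 20018 genes that could be named on the array. They were read by 11 probes out of 55681, of which 26413 carried 1 gene name, on each of 58 microarrays. The genes were selected by name from the family with the measured log2 ratios of every mouse, tissue and dose in view, and the fall of Car14 in lung at the high dose was among the results already known. The values of the dose and tissue comparisons are therefore given as a description of these mice, and the p-values beside them come from fits across all 55681 probes. The other 7 carbonic anhydrase genes on the array (Car1, Car5b, Car6, Car7, Car10, Car11 and Car15) were kept as a list for comparison.

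Male Muta™Mouse (a transgenic strain carrying lacZ) of about 13 weeks of age were gavaged daily for 28 days with indeno(1,2,3-cd)pyrene (IP), a polycyclic aromatic hydrocarbon, in olive oil. The daily dose was 12.5 mg/kg-bw in the low, 25 mg/kg-bw in the medium and 50 mg/kg-bw in the high dose group, and the control mice received olive oil alone, so that all groups shared the gavage and the vehicle. Lung, liver and forestomach were collected 72 h after the last dose, and RNA was taken from random sections of each tissue. Each group held 5 mice per tissue (mice 1 to 5 for vehicle, 6 to 10, 11 to 15 and 16 to 20 for the low, medium and high dose), except that mouse 4 of the vehicle group had a lung array alone, leaving 4 vehicle mice for liver and for forestomach. The study's methods count fewer vehicle mice at necropsy than there are vehicle lung arrays, and the grouping here follows the labels. Without the lung array labelled mouse 4, the high-dose difference of Car14 given below was -1.59 (limma adjusted p = 0.035). On every array the tissue RNA was labelled with Cy5 and a reference RNA from 11 mouse cell lines with Cy3, without a dye swap. A value below is the log2 ratio of tissue to reference RNA after loess normalization, so that 0 means equal signal and 1 means a ratio of 2. Ratios of different genes depend on their level in the reference and were not set against each other.

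Carbonic anhydrases catalyse the reversible hydration of carbon dioxide to bicarbonate and a proton, and the members differ mainly in where in the cell they act. Car2, Car3 and Car13 are cytosolic enzymes, Car8 is a cytosolic family member that has lost catalytic activity, Car5a lies in mitochondria and provides bicarbonate for the urea cycle and gluconeogenesis, Car4 is tethered to the cell surface by a lipid anchor, and Car9, Car12 and Car14 span the membrane with the active site outside. Car3 is known from fat, liver and slow skeletal muscle, Car4 from lung capillaries, and Car9 from hypoxic cells and gastric epithelium. IP is a ligand of the aryl hydrocarbon receptor (AhR), whose target genes include Cyp1a1, Cyp1b1 and Ahrr.

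Of the 9 genes, 5 had a promoter window of 300 bases in RefSeq (GRCm38.p6), and those of Car14, the member called in lung, and of Car9 and Car12, whose forestomach values are described below, are shown. Car4 and Car5a also matched, whereas Car2, Car3, Car8 and Car13 did not. Each window runs 5′ to 3′ on the strand of the gene, from 250 bases before its start to 50 after, and capitals mark the letters CACGT, the reverse of the core motif ACGTG bound by hypoxia-inducible factors. The windows are chr3:95904636-95904935 (minus strand) for Car14, chr4:43506776-43507075 (plus strand) for Car9 and chr9:66713436-66713735 (plus strand) for Car12.
Car14: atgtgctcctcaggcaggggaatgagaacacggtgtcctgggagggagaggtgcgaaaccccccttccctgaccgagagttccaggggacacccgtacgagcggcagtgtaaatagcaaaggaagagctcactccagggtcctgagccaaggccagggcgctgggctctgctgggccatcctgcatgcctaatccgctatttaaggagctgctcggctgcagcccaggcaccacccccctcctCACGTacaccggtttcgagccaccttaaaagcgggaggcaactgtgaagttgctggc
Car9: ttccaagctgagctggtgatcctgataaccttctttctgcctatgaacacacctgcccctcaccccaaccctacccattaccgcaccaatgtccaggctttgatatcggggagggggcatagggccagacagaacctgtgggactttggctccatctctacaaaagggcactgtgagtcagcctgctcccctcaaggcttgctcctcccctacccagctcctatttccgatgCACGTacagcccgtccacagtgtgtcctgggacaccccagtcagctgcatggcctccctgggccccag
Car12: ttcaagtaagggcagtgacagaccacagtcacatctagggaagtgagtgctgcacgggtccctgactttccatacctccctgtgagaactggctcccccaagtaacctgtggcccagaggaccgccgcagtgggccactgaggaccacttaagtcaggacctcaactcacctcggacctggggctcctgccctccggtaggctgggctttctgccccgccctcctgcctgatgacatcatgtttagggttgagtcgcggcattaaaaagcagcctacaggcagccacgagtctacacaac
On either strand, ACGTG was present in 3 of the 5 windows (Car4, Car9 and Car14), against 19.6% of all 32851 promoter windows of the same length. The AhR core GCGTG was present in 0 of the 5, against 32.4% of all windows. The E-box CACGTG, which contains ACGTG, was also present in 0 of the 5, against 7.15% of all windows. These are counts of letters in short windows and say nothing of binding.

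The labelled tissues carried their own marker genes. The mean log2 ratio of 8 hepatocyte genes was 6.86 to 8.21 in the liver arrays at most 0.82 in the lung arrays and 0.30 to 3.47 in the forestomach arrays, the highest in medium-dose mouse 13, and that of 9 genes of keratinized epithelium was 3.68 to 4.88 in forestomach and at most 0.24 elsewhere. The forestomach arrays, however, fell into separate clusters for 11 genes of the glandular stomach (such as Atp4a, Gkn1 and Pgc), with a mean of at most 1.73 in 9 mice and of at least 4.82 in 10 mice. The high values were in vehicle mice 2, 3 and 5, low-dose mice 6 and 10, medium-dose mice 13 and 15 and high-dose mice 18, 19 and 20. Between 53% and 90.7% of the probes of a lung array gave a Cy5 signal well above background, against 37.6% to 78.9% in liver and 43% to 85.9% in forestomach, and 11 arrays stood above a wide gap in that share (lung mice 3, 8, 13 and 18, which shared a slide, liver mice 9, 13, 15, 16 and 20, and forestomach mice 8 and 18). The high-dose differences of Car14 in lung and liver, and the relations to fat and endothelial markers below, are given with and without these arrays. Other values, among them the liver differences of Car5a, Car12 and Car13, are given with all arrays. In liver the arrays above the gap were all of dosed mice.

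Ratios of the members differed between tissues in the vehicle mice. Liver had the higher ratios for Car3, Car5a and Car14 against both other tissues, forestomach for Car2, Car9, Car12 and Car13, and lung for Car4. Car8 was higher in lung and in liver than in forestomach. With limma (adjusted p of at most 0.05 over all probes and a fold change of at least 1.5), 5 of 9 members differed between lung and liver, 7 between lung and forestomach, and 8 between forestomach and liver. Tissue differences were common on the array: the same threshold called 26.9%, 19.5% and 22.7% of all probes, and 42%, 31.7% and 37.5% of named genes taken by their brightest probe, in those 3 comparisons. Since the 9 genes were picked with these values in view, their counts are a description and no result about the family. Liver arrays lay on slides 6 to 8 and the other arrays on slides 1 to 5, so that slide and tissue cannot be told apart for liver. The tissues in this bulk RNA differ in cell types, and more cells of a type and more RNA per cell cannot be told apart.

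**Figure D1:**
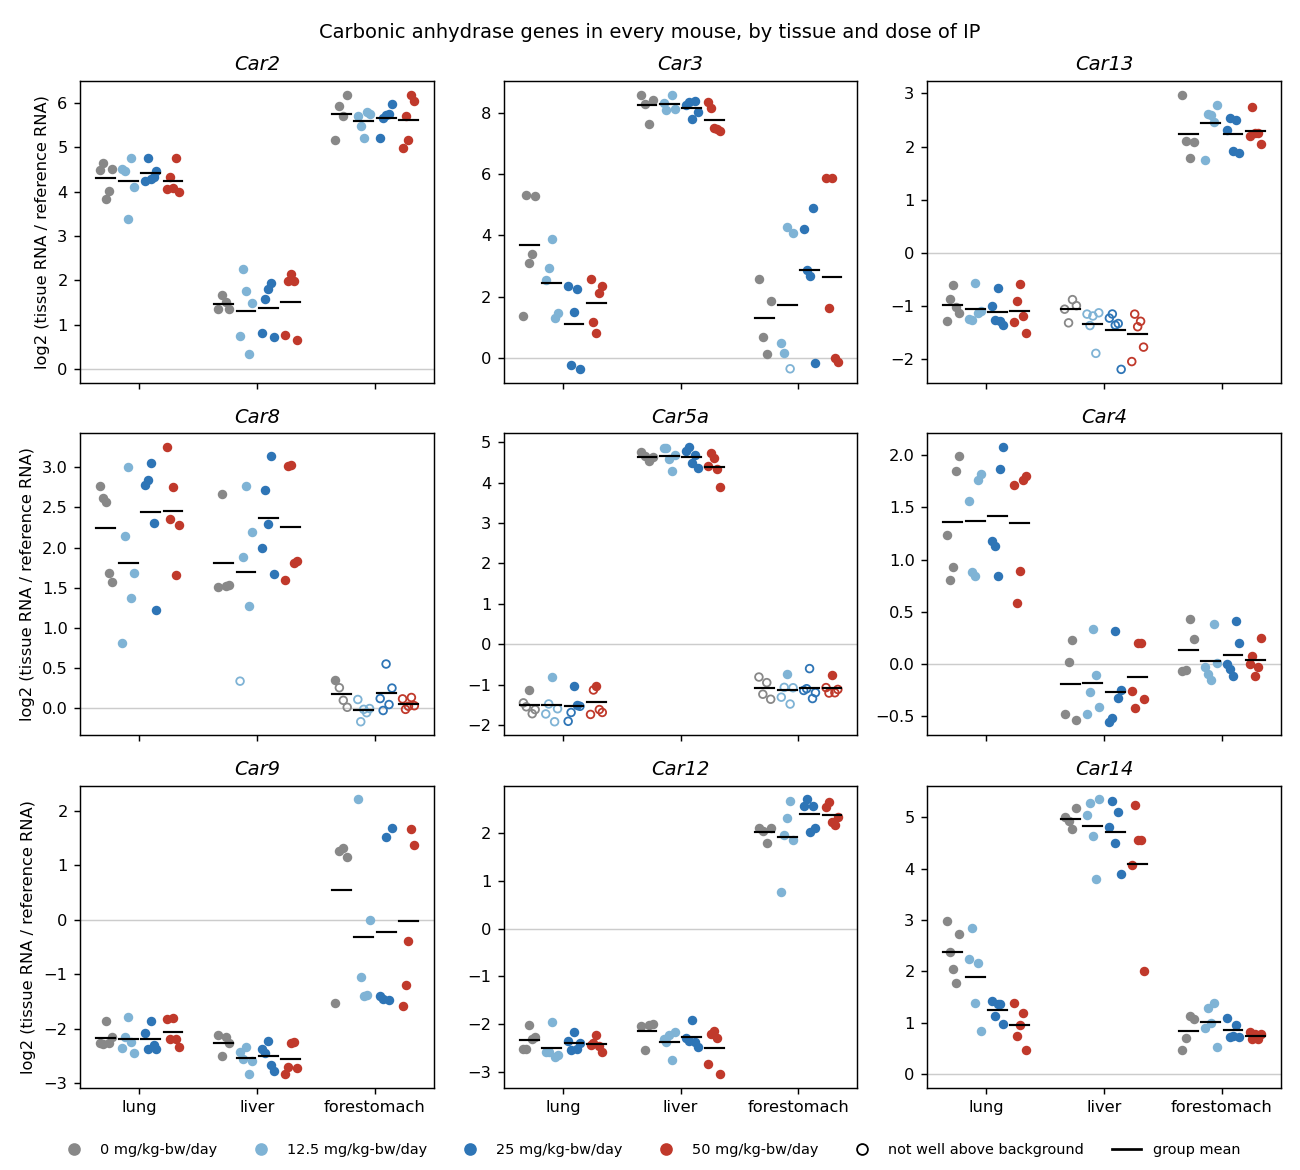
Log2 ratio of tissue to reference RNA for the 9 carbonic anhydrase genes (1 panel each, own vertical axis) in lung, liver and forestomach, coloured by IP dose. Each point is a mouse, open points were not well above background in Cy5 and black lines are group means. Most members separate by tissue, and Car3 and Car9 spread widely in forestomach.

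Among the cytosolic members, Car2, a fast enzyme found in acid-secreting and many epithelial cells, had ratios of 5.17, 5.92, 5.70 and 6.16 in vehicle forestomach, 4.48, 4.65, 3.84, 4.00 and 4.50 in vehicle lung, and 1.36, 1.68, 1.51 and 1.35 in vehicle liver. The 3 groups did not overlap. Lung was 2.82 log2 units above liver (SE 0.31, limma adjusted p = 2.63e-11) and 1.44 below forestomach (SE 0.31, adjusted p = 0.000139), a difference that no longer passed the threshold with arrays centred on the median (-0.64, adjusted p = 0.18). It was -0.87 when the forestomach arrays high in glandular stomach genes were left out, with vehicle mouse 1 alone remaining in that group. Car2 also varied with the capillary endothelial markers within lung (Pearson r = 0.82 of deviations from the dose group means over 20 mice, Spearman rho = 0.72, permutation p adjusted over 312 relations 0.019 and 0.043), r was 0.64 without the 2 mice farthest out and 0.61 over 16 mice without the 4 arrays with a high share of probes above background. Of those 312 relations between members and marker lists, 39 had an adjusted p of at most 0.05. The shuffles took no account of slide, and lung Car2 was 3.37 to 4.28 on slide 2 but 4.32 to 4.76 on slide 3. Differences shared by the arrays of a slide were therefore not separated from these relations.

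Car3, the carbonic anhydrase abundant in fat cells and hepatocytes, had ratios of 8.58, 8.28, 7.64 and 8.43 in vehicle liver. In vehicle lung it ranged from 1.39 to 5.32 and in vehicle forestomach from 0.15 to 2.58. All liver values lay above all others, with differences of 4.53 (lung below liver, SE 0.97, limma adjusted p = 9.76e-05) and 6.91 (forestomach below liver, SE 1.02, adjusted p = 1.23e-07). Lung and forestomach overlapped, and their difference of 2.38 (SE 0.97) narrowly missed the threshold (adjusted p = 0.0537). It passed under several alternatives, among them the fit with mouse as a random block (2.39).

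Car13, a cytosolic enzyme, had ratios of 2.98, 2.11, 1.78 and 2.09 in vehicle forestomach and of -1.28 to -0.62 in vehicle lung. In liver it was not well above background on any of 19 arrays. Forestomach was 3.23 log2 units above lung (SE 0.22, limma adjusted p = 1.01e-17) and at least 7.82-fold above liver. The bound rests on the normalized Cy5 channel alone, with the liver value set to the dimmest level well above background, and is open to dye bias in the absence of a dye swap. The inactive Car8 had ratios of 1.56 to 2.76 in vehicle lung and 1.5 to 2.67 in vehicle liver, which overlapped (difference 0.43, SE 0.38, adjusted p = 0.419). In forestomach it was above background in 1 of 19 mice. The difference between forestomach and liver was -1.46 (adjusted p above the threshold) when the arrays high in glandular stomach genes were left out, again with vehicle mouse 1 alone. The second probe gave means of 1.96 in lung and 1.65 in liver of vehicle mice, and since it was not above background in vehicle forestomach, lung and liver were at least 2.38-fold and 2.15-fold higher.

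Car5a, the mitochondrial member, was the most tissue-restricted by detection. All 19 liver arrays were well above background, with vehicle ratios of 4.75, 4.66, 4.53 and 4.62, against 5 of 20 lung arrays (1 of 5 in the vehicle group) and 2 of 19 forestomach arrays. The liver ratio was 6.14 log2 units above that of lung (SE 0.18, limma adjusted p = 1.25e-33), a difference measured against lung values that were not well above background in 4 of 5 mice. Against vehicle forestomach, where 0 of 4 arrays were above background, the liver signal was at least 69.3-fold higher.

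Among the membrane members, Car4 was read by a pair of probes that differed in size. The brighter probe had ratios of 1.23, 0.81, 0.93, 1.85 and 2.00 in vehicle lung, -0.54 to 0.22 in vehicle liver and -0.07 to 0.43 in vehicle forestomach. By that probe lung was above liver by 1.56 (SE 0.25, limma adjusted p = 5.28e-07) and above forestomach by 1.23, and forestomach and liver differed by 0.33 (SE 0.26, adjusted p = 0.405). The dimmer probe averaged 3.71 in vehicle lung and was not above background on any vehicle liver or forestomach array, so that lung was at least 18.7-fold above liver (adjusted p = 2.66e-20) and at least 18-fold above forestomach.

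Car9, the hypoxia-regulated member, was below the reference in lung (vehicle mean -2.17 ± 0.18, SD, n = 5) and in liver (-2.26 ± 0.17, n = 4). In vehicle forestomach the 4 mice had -1.52, 1.27, 1.32 and 1.15. The 3 high values were in the mice with a glandular stomach score of 6.37 to 6.54, and the low value in mouse 1, whose score was 0.55. The difference from lung of 2.72 (SE 0.57, limma adjusted p = 0.000124) was 0.64 when only mouse 1 was kept, and that from liver was 2.81 (SE 0.60, adjusted p = 0.000138) with all mice and 0.74 with mouse 1 alone. A single mouse gives no spread of its own, so no p is given for these.

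Car12, an epithelial enzyme of the skin and kidney among other sites, had ratios of 2.10, 2.05, 1.79 and 2.10 in vehicle forestomach. In lung the vehicle range was -2.52 to -2.02 and in liver -2.54 to -2.01. Forestomach was 4.34 log2 units above lung (SE 0.21, limma adjusted p = 3.63e-24) and 4.16 above liver (SE 0.22, adjusted p = 6.74e-23), and lung and liver differed by 0.18 (SE 0.21, adjusted p = 0.56). Car14, known from hepatocytes, kidney and nerve cells, had ratios of 5.01, 4.92, 4.77 and 5.19 in vehicle liver, 2.99, 2.38, 2.04, 1.77 and 2.73 in vehicle lung, and 0.47, 0.70, 1.14 and 1.07 in vehicle forestomach. The 3 tissues did not overlap, with lung 2.59 below liver (SE 0.36, adjusted p = 1.83e-08) and 1.54 above forestomach (SE 0.36, adjusted p = 0.000476).

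The genes whose ratios followed a member most closely over all 58 arrays were Klf4 for Car2 (Pearson r = 0.98), Thrsp for Car3 (0.96), Colq for Car4 (0.93), Tmprss6 for Car5a (0.997), Grb14 for Car8 (0.87), Tesc for Car9 (0.97), Cdsn for Car12 (0.995), Ptges3l for Car13 (0.99) and Ces1g for Car14 (0.96). The 58 points shared 20 mice and 3 tissues and the values are a description.

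Car14 in lung was the one member called in a comparison of dose with vehicle. In lung, 1 of 9 members was called at 50 mg/kg-bw/day, where 0.079% of all probes (44) were called. At 25 mg/kg-bw/day 0 of 9 were called (0.0126% of probes, 7 in all), and at 12.5 mg/kg-bw/day 0 of 9 (0% of probes). In liver and forestomach 0 of 9 members and 0% of probes were called at any dose with limma. A permutation-based Fs statistic, computed here after the description in the study's methods, also called 0 probes there. The study itself reported small numbers of changed genes for IP in both tissues at the same thresholds, and more in lung. Its lung counts were also far above those found here at every dose, with limma and with the Fs statistic. The latter called 2, 10 and 47 lung probes in order of dose. The reason for these differences from the study was not tested. Members with an unadjusted p under 0.05 numbered 2 in lung at 25 and at 50 mg/kg-bw/day (Car3 and Car14), 2 in liver at 50 mg/kg-bw/day (Car3 and Car13), and 0 in the other 6 comparisons. Of all probes 6.53%, 8.8% and 6.87% had such a p in those 3 comparisons, and in the others 3.92% (lung, low dose), 2.6% and 4.44% (liver, low and medium dose), and 4.12%, 3.6% and 3.89% (forestomach, in order of dose). The median difference of the 9 members at the high dose was -0.054 in lung, -0.30 in liver and -0.098 in forestomach, against 0.0085, -0.013 and 0.0085 for all named genes.

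**Figure D2:**
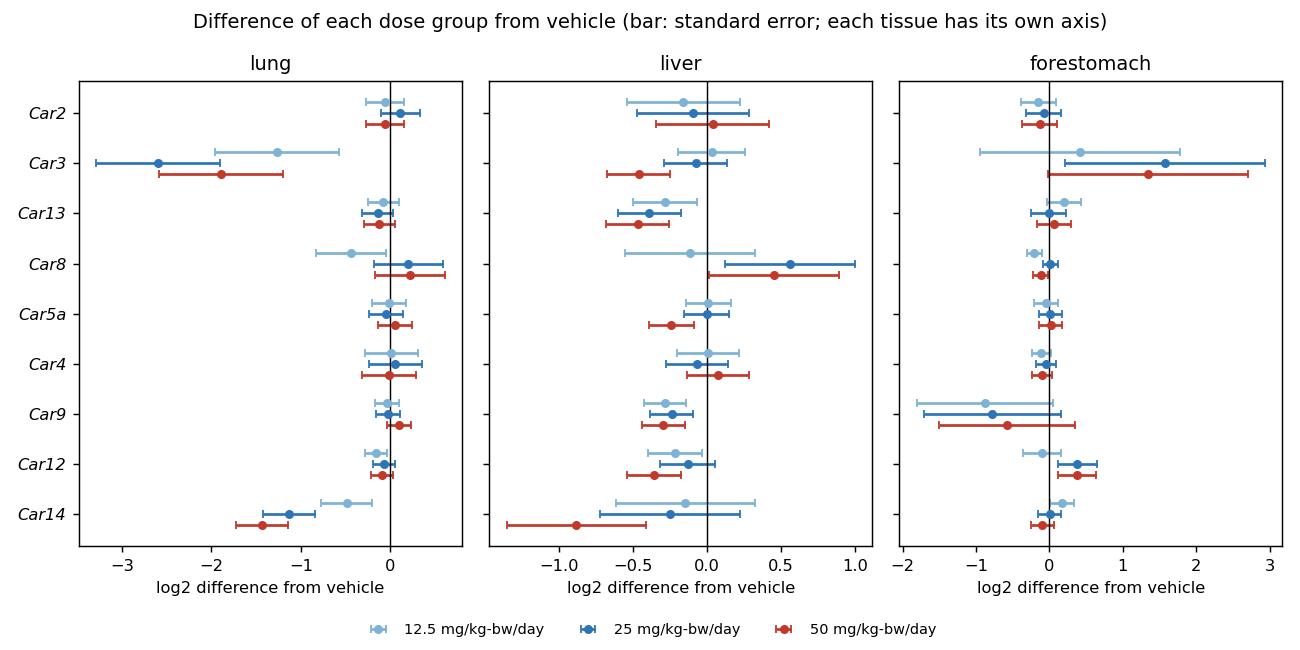
Difference from vehicle on the log2 scale for the 9 members at each of the 3 IP doses, in lung, liver and forestomach (each with its own horizontal axis). Points are estimates of the fit and bars are standard errors. Car14 and Car3 lie farthest below 0 in lung, whereas the forestomach values of Car3 and Car9 have wide errors.

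Car14 had lower ratios with dose in lung. The vehicle values of 2.99, 2.38, 2.04, 1.77 and 2.73 (mean 2.38 ± 0.49, SD, n = 5) compared with 2.24, 2.85, 1.38, 2.16 and 0.84 at 12.5 mg/kg-bw/day (1.90 ± 0.79). They compared with 1.41, 1.13, 1.37, 1.36 and 0.98 at 25 mg/kg-bw/day (1.25 ± 0.19) and with 1.39, 0.74, 0.96, 1.19 and 0.46 at 50 mg/kg-bw/day (0.95 ± 0.36). The low-dose mice overlapped the vehicle mice, while all 10 mice of the medium and high dose lay below the lowest vehicle value. Of all probes 1.36% had no overlap with vehicle at the medium and 1.94% at the high dose. The differences were -0.49 (SE 0.29, limma adjusted p = 1), -1.13 (SE 0.29, adjusted p = 0.212) and -1.44 (SE 0.29, adjusted p = 0.0378), the last a fall of 2.70-fold.

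Each slide held 1 lung array of every dose group, in its own array column, so that column and dose cannot be told apart. The same holds for the forestomach dose groups, and in liver no column held both vehicle and high-dose arrays. Within slides, Car14 in lung was lower in the high-dose than in the vehicle mouse on 5 of 5 slides, by 1.08 to 1.65 log2 units. It was also lower in the medium-dose mouse on 5 of 5 slides. With slide as a block the adjusted p was 0.00129 at the high and 0.0183 at the medium dose. The direction was kept in all other settings, but the high-dose call was lost in many. It was lost without vehicle mouse 1, 2 or 5 or high-dose mouse 17, 18, 19 or 20 (adjusted p up to 0.0994), with arrays centred on the median (adjusted p = 0.731), with the scanner's log ratio (0.345), under 3 other ways of processing (0.0518 to 0.0575), and without the 4 arrays with a high share of probes above background (-1.52, adjusted p = 0.0973).

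**Figure D3:**
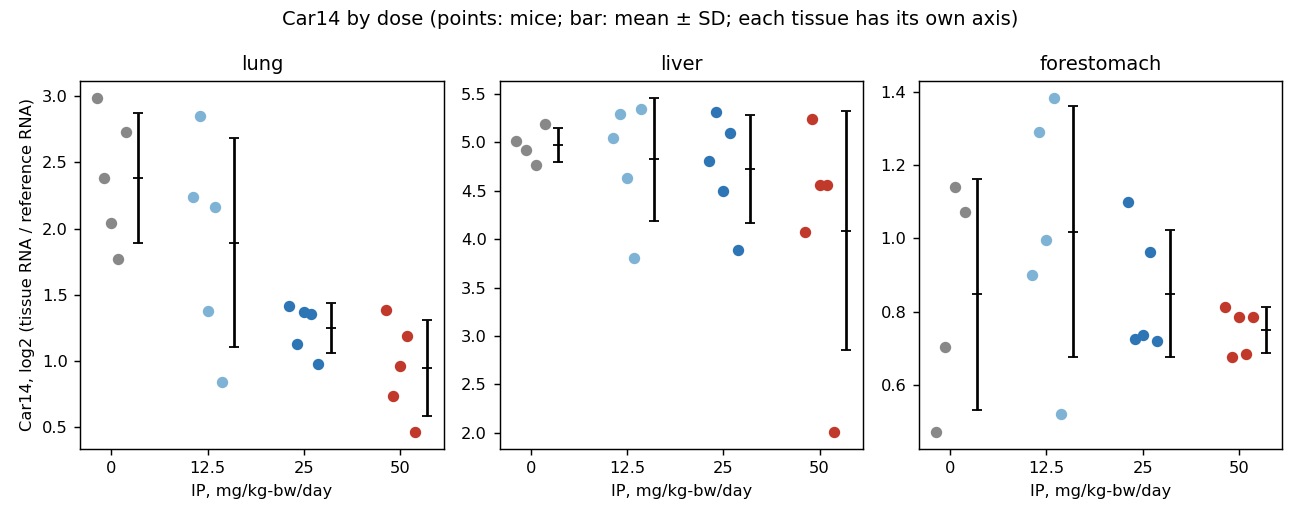
Car14 log2 ratio by IP dose in lung, liver and forestomach (own vertical axes), with 1 point per mouse and the group mean ± SD beside it. In lung the medium- and high-dose points all lie below the lowest vehicle value of 1.77, whereas in forestomach the groups overlap and in liver 1 high-dose mouse lies at 2.01.

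Markers of lung cell types overlapped between vehicle and high-dose lungs, with mean log2 ratios of 5.67 to 6.22 and 5.35 to 6.19 for 8 alveolar epithelial genes, 3.41 to 4.15 and 3.60 to 4.29 for 10 capillary endothelial genes, and 5.73 to 6.06 and 5.43 to 6.15 for 3 airway genes. The ranges of fat and heart muscle genes also overlapped: 8 white fat genes had 1.38 to 3.92 in vehicle and 1.05 to 2.19 in high-dose lungs, 7 brown fat genes 0.44 to 1.87 and 0.24 to 0.71, and 9 heart muscle genes 1.09 to 3.40 and -0.01 to 2.09. Of their genes 5 of 8, 6 of 7 and 0 of 9 had an unadjusted p under 0.05 at the high dose, all lower, and 1 was called, Ucp1, the uncoupling protein of brown fat, which fell by 3.05 on the log2 scale. Their part in the Car14 result was not tested. Deviations of Car14 from the dose group means were most like those of Gpr4 (r = 0.85), Usp21 (0.83), Batf (0.82), Thsd1 (0.81) and Clec14a (0.80) over 20 lungs, and r was 0.80 to 0.88 for them over 16 lungs without the 4 arrays with a high share of probes above background.

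In liver Car14 had 4.08, 5.24, 4.55, 4.56 and 2.01 at the high dose, against 5.01, 4.92, 4.77 and 5.19 in the vehicle mice. The groups overlapped, with a difference of -0.88 (SE 0.47, limma adjusted p = 0.739). It was -0.36 without mouse 20. Low values were also seen in low-dose mouse 9 (3.81) and medium-dose mouse 15 (3.89), and mice 9, 15, 16 and 20 were all among the 5 liver arrays with a high share of probes above background. Without those 5 arrays the high-dose difference was -0.19 (limma adjusted p = 0.818). Within liver, Car14 varied with the capillary endothelial markers (r = 0.85 and rho = 0.86 over 19 mice, permutation p adjusted over 312 relations 0.0031 and 0.018, r = 0.80 without the 2 mice farthest out). Without the 5 arrays r was 0.42 and rho 0.35 over 14 mice, so that the relation rests on them. The genes most like Car14 there were Acat2, Lrtm1, Rps4l, Ces1g and Dct (r = 0.96, 0.94, 0.94, 0.94 and 0.93), with 0.63, 0.020, 0.65, 0.37 and 0.76 without the 5 arrays.

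In forestomach the Car14 groups overlapped, with means of 0.85, 1.02, 0.85 and 0.75 in order of dose and differences of 0.17, 0.00 and -0.10 (SE 0.16). The effect of 50 mg/kg-bw/day was 1.34 log2 units more negative in lung than in forestomach (SE 0.49, limma adjusted p = 1) and 0.55 more negative than in liver (SE 0.49, adjusted p = 0.849). No difference between tissues in the effect of the high dose was called for any of the 9 members, where 0.0162% (lung against liver), 0.0144% (lung against forestomach) and 0.00359% (forestomach against liver) of all probes were called. Of the members, 0, 2 (Car3 and Car14) and 1 (Car12) had an unadjusted p under 0.05 in those comparisons, as did 7.08%, 2.91% and 6.17% of all probes.

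Car3 was lower on average at every dose in lung, with wide scatter. The vehicle values were 1.39, 5.32, 3.12, 3.40 and 5.29, followed by 2.56, 2.94, 3.89, 1.32 and 1.49 at 12.5 mg/kg-bw/day. The values were 2.34, -0.20, 1.51, 2.26 and -0.36 at 25 mg/kg-bw/day and 2.59, 1.2, 0.82, 2.12 and 2.34 at 50 mg/kg-bw/day. Vehicle mouse 1 fell within the range of every dose group, while the other vehicle mice lay above all medium- and high-dose mice. The differences were -1.26, -2.59 and -1.89 (SE 0.69), and none passed the threshold (limma adjusted p = 1, 0.262 and 0.364).

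Car3 followed the white fat markers in the same lungs. The mean of the 8 genes (Adipoq, Plin1, Cidec, Retn, Lep, Cfd, Lipe and Fabp4) had a median of 2.65 in vehicle lungs and of 1.96, 1.25 and 1.81 at the rising doses. Deviations of Car3 from its dose group means correlated with those of the fat score at r = 0.94 over 20 lungs (rho = 0.93, permutation p = 1e-05, the smallest that 100000 shuffles within dose groups can give, adjusted over 312 relations 0.001), r was 0.91 without the 2 mice farthest out and 0.96 over 16 mice without the arrays with a high share above background. The 5 genes most like Car3 in lung were Retn, Adipoq, Fabp4, Dgat2 and Cfd (r = 0.94, 0.90, 0.87, 0.85 and 0.85), 4 of which were on the fat list. Their part in the difference between dose groups was not tested.

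**Figure D4:**
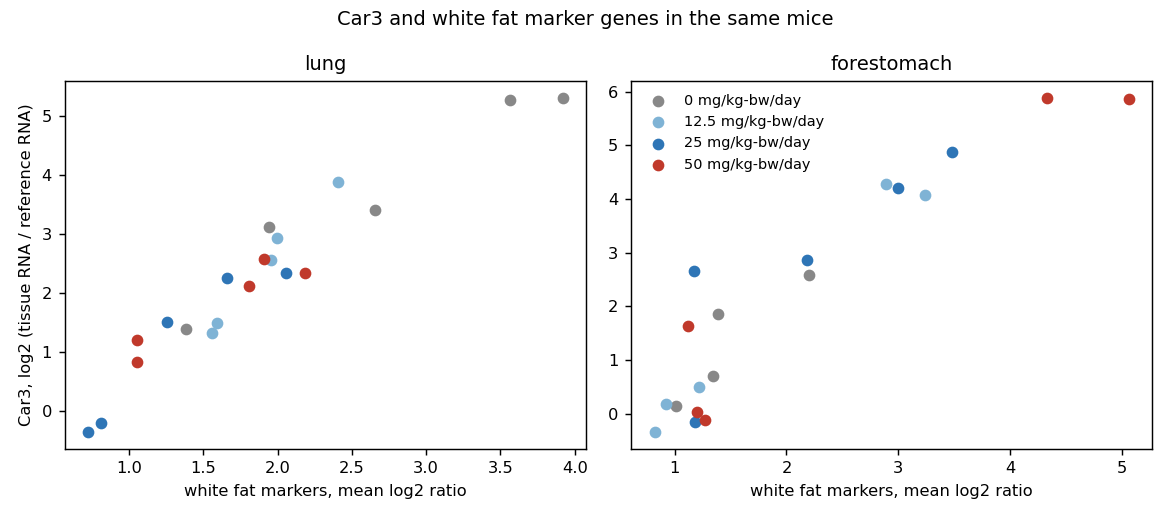
Car3 log2 ratio (vertical) against the mean log2 ratio of 8 white fat marker genes (horizontal) in the same lung and forestomach arrays, coloured by IP dose, 1 point per mouse. Car3 rises with the fat score in both tissues, and the 2 highest lung values (5.32 and 5.29) are vehicle mice with the highest fat scores.

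In forestomach Car3 had 2.58, 0.69, 0.15 and 1.86 in vehicle mice and 5.87, 1.64, 5.89, 0.02 and -0.11 at the high dose. The low-dose mice had 0.50, 0.18, 4.28, -0.34 and 4.07, and the medium-dose mice 4.2, 2.87, 2.66, 4.88 and -0.16. The groups overlapped, with differences of 0.42, 1.57 and 1.34 (SE 1.36, limma adjusted p = 0.99, 1 and 1), opposite in sign to those in lung. Car3 again followed the white fat score (r = 0.94, rho = 0.89 over 19 mice, permutation p adjusted over 312 relations 0.001 and 0.014, r = 0.92 without the 2 mice farthest out and 0.93 over 17 mice without the arrays with a high share above background), and Cfd, Thrsp, Hddc3, Orm2 and Fxyd2 were most like it (r = 0.93, 0.91, 0.89, 0.89 and 0.89). With the hepatocyte score there r was -0.14 (rho = -0.19, permutation p adjusted over 312 relations 0.73 and 0.64, r = -0.12 without the 2 mice farthest out).

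In liver, where the fat score stayed between 0.33 and 0.54, Car3 had 8.34, 8.15, 7.50, 7.46 and 7.41 at the high dose against 8.58, 8.28, 7.64 and 8.43 in vehicle mice. The groups overlapped, with a difference of -0.46 (SE 0.21, limma adjusted p = 0.723). Within slides 6, 7 and 8 the difference was -0.09, -0.16 and -0.65. High-dose mice 18 and 19 (7.50 and 7.46) shared slide 7 with vehicle mouse 3 (7.64). The array of mouse 20 (7.41) had a high share of probes above background. With arrays centred on the median the difference was 0.12. The medium-dose values were 8.25, 8.34, 7.79, 8.39 and 8.01. Only 4 low-dose values were available (8.30, 8.08, 8.58 and 8.11), since the spot of mouse 8 was marked as an outlier by the scanner software and left out.

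The other cytosolic and mitochondrial members gave no called change. Car13 in liver was 0.47 lower at the high dose (SE 0.21, limma adjusted p = 0.722), on arrays where it was not above background. Its lowest high-dose values there, -2.06 and -1.78, were in mice 16 and 20, whose arrays had a high share of probes above background. Car2 differed from vehicle by at most 0.16 in size in any tissue and dose (SE 0.21 to 0.38). Car8 differed by -0.44, 0.20 and 0.22 in lung (SE 0.39) and by -0.12, 0.56 and 0.45 in liver (SE 0.44). Car5a in liver had 4.42, 4.74, 4.6, 4.34 and 3.90 at the high dose, a difference of -0.24 (SE 0.15, adjusted p = 0.752). Its lowest value was again in mouse 20, whose array had a high share of probes above background.

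Car9 in forestomach was spread over 3.79 log2 units, with high and low values in every dose group. The vehicle mice had -1.52, 1.27, 1.32 and 1.15, the low-dose mice 2.21, -1.05, -1.40, -1.38 and 0.00, the medium-dose mice -1.40, -1.46, 1.52, -1.47 and 1.69, and the high-dose mice -1.58, -1.19, -0.38, 1.66 and 1.37. In the same order the glandular stomach score was 0.55, 6.54, 6.37 and 6.51, then 6.46, 1.51, 0.78, 0.73 and 5.78, then 1.02, 1.00, 6.38, 1.73 and 6.63, then 1.16, 1.44, 4.82, 6.81 and 6.51. All 9 mice with a low score had Car9 of -1.05 or less, and all 10 mice with a high score had -0.38 or more. The mice formed separate clusters and no pooled correlation is given. Differences from vehicle were -0.88, -0.78 and -0.58 (SE 0.93, limma adjusted p = 0.977, 1 and 1). With the 10 high-score arrays left out, 1 vehicle mouse remained, and the low- and medium-dose differences were 0.25 and 0.079. In lung and liver Car9 differed from vehicle by at most 0.30 in size.

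Car12 in forestomach had 2.54, 2.64, 2.24, 2.17 and 2.34 at the high dose, all above the vehicle values of 2.10, 2.05, 1.79 and 2.10. It was the 1 member of 9 without overlap in this comparison, in which 1.66% of all probes were without overlap and 0% were called, and the difference of 0.38 (SE 0.26, limma adjusted p = 1) did not pass the threshold. The medium-dose mice had 2.56, 2.70, 2.02, 2.56 and 2.11, and the low-dose mice 0.76, 1.96, 2.31, 2.66 and 1.85. High-dose mice 16 and 17 (2.54 and 2.64) had a low glandular stomach score, the others a high one. In the medium group low-score mice 11, 12 and 14 had 2.56, 2.70 and 2.56, against 2.02 and 2.11 in high-score mice 13 and 15. Low-dose values were 1.96 to 2.66 at low and 0.76 and 1.85 at high scores. Among vehicle mice only mouse 1 (2.10) had a low score. The part of the score was not tested. The lowest value, 0.76, was in mouse 6, which also had the highest Car9 value. In liver the high-dose difference of Car12 was -0.36 (SE 0.18, adjusted p = 0.727), and the effect of the high dose was 0.73 more positive in forestomach than in liver (SE 0.29, adjusted p = 0.767). The lowest liver values, -2.83 and -3.05, were in mice 16 and 20, whose arrays had a high share of probes above background.

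**Figure D5:**
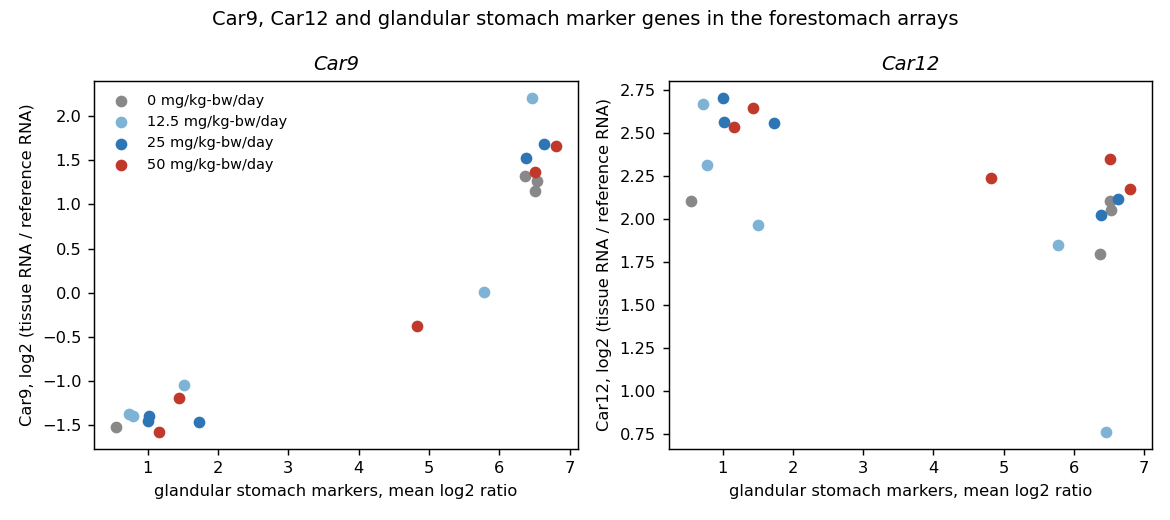
Car9 (left) and Car12 (right) log2 ratios against the mean log2 ratio of 11 glandular stomach marker genes in the 19 forestomach arrays, coloured by IP dose, 1 point per mouse. The arrays fall into a group of 9 with scores up to 1.73 and a group of 10 from 4.82 upward, and Car9 does not overlap between them.

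Car4 did not differ from vehicle by more than 0.11 in any tissue and dose with its brighter probe, and the dimmer probe gave differences of -0.14, 0.21 and -0.01 in lung (SE 0.29). Car12 in lung differed by -0.16, -0.07 and -0.09 (SE 0.12).

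The rest of the bicarbonate system was likewise without a call. At 50 mg/kg-bw/day, 0 of the 7 other carbonic anhydrase genes, 0 of 21 bicarbonate, proton and lactate transporters, 0 of 9 bicarbonate-using enzymes and 0 of 12 hypoxia targets passed the threshold in any of the tissues with limma, and 0 did so at the lower doses. Of all probes 0.079% were called in lung at the high dose, 0.0126% at the medium and 0% at the low dose. In liver and forestomach 0% were called at any dose, so that any list of genes had a count of 0 there. In lung at the high dose 0, 3, 2 and 0 of them had an unadjusted p under 0.05 (8.8% of all probes), and their median differences were -0.073, 0.0032, 0.051 and -0.029. In the same lungs the AhR target genes were higher, 6 of 6 in sign with a median of 1.48, and 2 were called: Cyp1b1, a xenobiotic-metabolizing monooxygenase, rose by 3.64 (SE 0.45, adjusted p = 0.00145), and Ahrr, the repressor of the receptor, rose by 2.50 (SE 0.28, adjusted p = 0.000359). Cyp1a1 was 4.24 higher (SE 0.98) without passing the threshold (adjusted p = 0.0837). In liver and forestomach 0 of the 6 AhR targets and 0% of all probes were called at the high dose, and the AhR targets had medians of 0.19 and 0.18. An unadjusted p under 0.05 was seen for 2 and 1 of the 6, and for 6.87% and 3.89% of all probes.

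Among the other carbonic anhydrases, Car1 and Car7 also differed between vehicle lung and vehicle liver, where 42% of named genes were called. On a vehicle liver array 3 to 4 of the 7 other genes were well above background, and on a vehicle lung array 4 to 7. Car1, the erythrocyte and colon enzyme, was higher in liver than in lung by 2.90 (SE 0.22, limma adjusted p = 9.84e-17), and Car7, a cytosolic enzyme known from brain, by 1.99 (SE 0.18, adjusted p = 6.72e-14). Cps1, the urea cycle enzyme that uses mitochondrial bicarbonate, was higher in liver than in lung by 8.08 (SE 0.19, adjusted p = 5.4e-38), in the same direction as Car5a.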

How the data were processed

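Gene expression was measured in lung, liver and forestomach RNA on 58 dual-colour Agilent mouse arrays. Per the file headers, the authors' files hold scanner intensities from Feature Extraction 10.7.3.1 with a probe design on mm9. Median Cy5 and Cy3 intensities were used, without background subtraction. The deposited log10 ratios of the scanner software, and the authors' table of normalized log2 ratios, served as alternatives. In that table the liver columns did not match the arrays probe by probe (r of -0.007 to 0.007), so it was used for lung and forestomach alone.

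Here control spots and outlier spots were left out, log2(Cy5/Cy3) was normalized by loess within each array, and spots of a probe were averaged, in R 4.3.3 with limma 3.58.1 and statmod 1.5.0. Probes were named through RefSeq by their accession: 26413 of 55681 had 1 name, and 29268 none. A gene was taken by its brightest probe over all arrays. Each dose was compared with vehicle by lmFit and eBayes within a tissue, and tissues were compared in a joint fit. P-values were two-sided with Benjamini-Hochberg adjustment over all probes, and calls required an adjusted p not above 0.05 together with a change of 1.5-fold or more, as in the study's methods. The fit was tested on simulated data. The array number limits the precision. Relations to marker lists were tested by shuffling mice within dose groups, without regard to slide. All members, and the 3 genes most like each over all arrays (the first is named), or the 5 most like within a tissue where a member moved by at least 1.5-fold at the high dose, were named by rule. The members and lists were chosen with earlier results of these data known. Mouse numbers were shared between tissues of the same mice and entered as a block in an alternative fit. Residuals of the same mouse in lung and forestomach had a median correlation of 0.149. Other alternatives were background correction, normalization, dim probes, slide and leaving out single mice. The arrays left out for their glandular stomach score or share above background were chosen after seeing the data.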

Additional observations from a re-analysis of the deposited data

Results flagged for a closer look

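Among 108 groups of 4 or 5 mice (9 members, 3 tissues, 4 doses), 7 (6.48%) held a mouse set apart from the others by a gap large for the range of the group. Chance alone flags about 5% of such groups. Car9 in vehicle forestomach was -1.52 in mouse 1, against 1.15 to 1.32 in the other 3 mice. Vehicle mouse 2 stood apart in liver for both Car8, with 2.67 against 1.5 to 1.53, and Car12, with -2.54 against -2.03 to -2.01. Low-dose mouse 8 stood apart in lung for Car12, with -1.97 against -2.70 to -2.58, and for Car13, with -0.57 against -1.26 to -1.11, and its array was among those with a high share of probes above background. Car12 in vehicle forestomach was 1.79 in mouse 3, against 2.05 to 2.10. Car13 in liver was -2.20 in medium-dose mouse 15, against -1.37 to -1.16, on arrays where it was not above background.

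The estimated differences of Car12 at 50 mg/kg-bw/day had opposite signs, with all 5 mice above the vehicle mean in forestomach and all 5 below it in liver. In liver the groups overlapped, and mouse 18 (-2.15) lay almost at the vehicle mean (-2.15). The lowest values, -2.83 and -3.05, were in mice 16 and 20, whose arrays had a high share of probes above background. Neither difference from vehicle passed the threshold. The difference of 0.73 had an adjusted p of 0.767 in the limma fit.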

How the results depend on the processing

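Of 214 counts of called members under alternatives other than leaving out single mice, 204 stayed within 1.5 times their value, and 540 of 560 values of single members kept their direction and their side of the threshold. A count of 0 that remained 0 was scored as unchanged, and every dose count except that of lung at 50 mg/kg-bw/day was 0. That count moved in 7 of 15 settings. The count of 1 for lung at 50 mg/kg-bw/day became 0 with arrays centred on the median, Cy5 alone, the scanner's log ratio, a variance trend with robust moderation, vehicle and high dose fitted alone, or the arrays with the highest share of probes above background left out (Car14 at -1.22, -1.31, -1.79, -1.44, -1.44 and -1.52). It was 0 to 1 when single mice were left out. For these the cause was not tested. With slide as a fixed block, the count for lung at 25 mg/kg-bw/day was 1. At an unadjusted p under 0.05 and a fold change of at least 1.2, it was 2 for lung at 25 and at 50 mg/kg-bw/day and 2 for liver at 50 mg/kg-bw/day. With mouse as a random replicate block, 5, 8 and 8 members were called between tissues against 5, 7 and 8, since Car3 between lung and forestomach passed the threshold (2.39), and a paired fit of the vehicle mice called 5, 7 and 8. Under the random block 0 members differed between tissues in the effect of the high dose.

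Directions turned with median centring for Car3 (0.12) and Car13 (0.11) in liver at 50 mg/kg-bw/day. They also turned without the glandular stomach arrays for Car9 at 12.5 (0.25) and 25 mg/kg-bw/day (0.079) in forestomach and for its lung against forestomach effect (-0.040). With median centring Car2 no longer passed between lung and forestomach (-0.64). Low signal over background limits Car5a outside liver, Car13 in liver and Car8 in forestomach.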
